A study of Mus musculus with 15 samples.

Results

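The 10 genes described here write, copy, erase or guard DNA methylation, and they were followed in RNA-seq of mouse embryonic stem cells (ESCs) that lost OCT4, the pluripotency factor encoded by *Pou5f1*. They were taken by name, as *Dnmt1*, *Dnmt3a*, *Dnmt3b*, *Dnmt3l*, *Uhrf1*, *Tet1*, *Tet2*, *Tet3*, *Tdg* and *Dppa3*, and all 10 were found among the 48709 genes counted. CreER ESCs (mixed 129SV C57BL/6) carry 1 floxed *Oct4* allele opposite a null allele, together with a CreER recombinase driven by the constitutive CAG promoter. These cells were sequenced untreated and at 12, 18, 24 and 36 h of 500 nM 4-OHT, which turns on CreER so that the floxed allele is cut out, with 2 libraries at each time. O4AID ESCs (129SV) derive from the ZHBT line, whose endogenous *Oct4* alleles are both null and whose TetOFF *Oct4* transgene was kept silent with doxycycline. They live on *Oct4* fused to an auxin-inducible degron (AID), and both this fusion and the Tir1 protein that recognises the degron are driven by CAG. Their libraries, 1 at each time, were made untreated and at 1.5, 6, 10 and 24 h of 500 µM IAA, the auxin that sends the fusion protein to degradation. Whether O4AID ESCs were a single clone or a pool is not given in the sources used here.

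Cytosine methylation at CpG dinucleotides is set by *Dnmt3a* and *Dnmt3b*, with *Dnmt3l* as a partner that has no catalytic activity of its own. At each round of replication it is copied to the new strand by *Dnmt1*, which *Uhrf1* brings to half-methylated sites. The Tet enzymes oxidise methylcytosine and use 2-oxoglutarate to do so, and the glycosylase *Tdg* cuts out the more oxidised forms. *Dppa3* (also called Stella) shields methylated DNA from *Tet3* in the early embryo and hinders *Uhrf1* on chromatin. Naive ESCs held in medium with kinase inhibitors are known for little methylation and low levels of the de novo enzymes, whereas primed cells are known for the opposite.

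The CreER libraries held 21.7 to 30.8 M (mega) reads in genes and the O4AID libraries 40.5 to 48.7 M. *Pou5f1* went from 324 and 317 CPM (reads per mega-read, scaled by TMM) in the untreated CreER libraries to 112 and 124 CPM at 36 h. In O4AID the *Pou5f1* reads stood at 757 CPM at 0 h and 637 CPM at 24 h, in a line where IAA acts on the protein and not on the gene. All 8 ESC markers fixed for the check, among them *Nanog*, *Sox2* and *Esrrb*, were detected in each of the 15 libraries. The labels give 1 growth protocol for every library, N2B27 with PD03, Chiron and LIF on gelatin, while the study moved CreER cells to serum with LIF at the addition of 4-OHT in other assays. The medium of each single library is not given in the sources used here. Medium, genotype, strain, doxycycline and depth therefore cannot be told apart from the line. If the sequenced CreER cells changed medium with 4-OHT as well, medium cannot be told apart from time after 4-OHT either. Nothing in the labels says that the CreER replicates came from separate cultures, so the p-values measure only the spread between those libraries, which may be technical. In bulk RNA, fewer cells of a type and less RNA per cell cannot be told apart. Neither line has an untreated library at a later time, or treated libraries of cells that keep OCT4. The drug and the hours in culture therefore cannot be told apart from the loss of OCT4.

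Windows before a transcript start of 3 genes are shown because the results turn on these genes: *Tet2* changed most with time, and *Dnmt3l* and *Dnmt3b* differed most between the lines. Each line gives the 250 bases before a transcript start in the RefSeq promoter table (build GRCm38.p6), 5′ to 3′ on the strand of the gene, with every CpG, the dinucleotide these genes act on, in capitals. The *Tet2* bases lie at chr3:133544391-133544640 on the minus strand, the *Dnmt3l* bases at chr10:78049592-78049841 and the *Dnmt3b* bases at chr2:153649199-153649448, both on the plus strand, and none of them overlapped an annotated exon. The *Tet2* and *Dnmt3l* bases lie within the annotated span of their gene, which for *Dnmt3l* begins at 78041947. The *Dnmt3l* window nearest that position was passed over because 99 of its upstream bases lie in an exon.
Tet2: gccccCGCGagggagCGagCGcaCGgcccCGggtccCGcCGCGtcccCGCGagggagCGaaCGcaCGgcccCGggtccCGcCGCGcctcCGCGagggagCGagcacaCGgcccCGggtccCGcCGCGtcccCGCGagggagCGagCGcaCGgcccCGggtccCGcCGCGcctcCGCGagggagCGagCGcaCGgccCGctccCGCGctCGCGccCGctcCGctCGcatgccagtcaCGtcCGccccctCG
Dnmt3l: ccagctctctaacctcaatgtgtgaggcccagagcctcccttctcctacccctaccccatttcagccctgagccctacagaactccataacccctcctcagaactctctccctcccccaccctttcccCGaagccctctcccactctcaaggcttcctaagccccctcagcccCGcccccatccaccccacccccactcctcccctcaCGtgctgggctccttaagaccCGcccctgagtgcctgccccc
Dnmt3b: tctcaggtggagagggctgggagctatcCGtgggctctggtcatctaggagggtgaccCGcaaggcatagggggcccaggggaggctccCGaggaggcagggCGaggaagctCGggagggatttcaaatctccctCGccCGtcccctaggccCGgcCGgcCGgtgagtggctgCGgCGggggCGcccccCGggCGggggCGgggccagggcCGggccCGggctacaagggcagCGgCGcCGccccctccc
These stretches hold 51, 4 and 21 CpG. Over the whole windows of 300 bases, which add the 50 bases after the start, *Tet2* had 57 CpG, more than 99.8% of the 32851 windows in the table, whereas the 3 windows of *Dnmt3l* had 6, 4 and 3 CpG against a median of 7 over all windows. The 9 genes present in that table had 16 windows, and the octamer ATGCAAAT, the motif that OCT4 and its relatives bind, was in 0 of them on either strand, against 1.74% of all windows. At a share of 1.74%, 16 windows are too few for an absence to set these genes apart from others. Motif letters describe the window only, and an absence there says nothing of OCT4 binding elsewhere.

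The levels of the 10 genes in the untreated lines answer how the machinery was set before OCT4 was removed. De novo genes were low in O4AID and *Tet2* was high. *Dnmt3l* stood at 600 and 591 CPM in the CreER 0 h libraries and at 2.21 CPM (95% Wilson interval 1.81 to 2.69, 98 reads) in the O4AID 0 h library, a ratio of 270. *Dnmt3b* stood at 586 and 578 CPM in CreER and 99.3 CPM in O4AID, and *Dnmt3a* at 210 and 227 CPM against 59.1 CPM. The O4AID library was thus below both CreER libraries for all 3 de novo genes. Over the whole time courses the highest O4AID library lay under the lowest CreER library for 4 of the 10 genes, these 3 and *Tet1*, against 30.9% of the 18602 genes compared. The lowest O4AID library lay over the highest CreER library for *Tet2* and *Tdg*, 2 of the 10, against 33.4% of all genes. Groups that do not overlap were thus common between these lines.

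*Tet2* went the other way, with 173 and 168 CPM in CreER 0 h and 753 CPM in O4AID 0 h. On the log2(CPM + 1) scale the difference of O4AID from the CreER mean was 2.13 for *Tet2*, -7.54 for *Dnmt3l*, -2.54 for *Dnmt3b* and -1.87 for *Dnmt3a*, while the 2 CreER libraries differed by at most 0.11 for these 4 genes. *Tet1* had 884 and 863 CPM in CreER and 565 CPM in O4AID, a difference of -0.63. The maintenance genes differed less, by 0.40 for *Dnmt1* and 0.62 for *Uhrf1*, both higher in O4AID. *Tet3* was alike in level, with 18.7 and 18.9 CPM in CreER and 20.2 CPM in O4AID.

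Of the 10 genes, 3 were lower in O4AID by at least 1 on the log2 scale, against 15.5% of the 18602 genes compared, and 2 were higher (*Tet2* and *Tdg*), against 16.5%. With 1 untreated O4AID library no p-value was computed. Scaling to total counts shifted the median of all genes in this comparison by -0.14, and *Tdg* then differed by 0.85. Markers of several cell types differed between the untreated lines too. The summed level of the primed epiblast markers *Fgf5*, *Otx2*, *Pou3f1* and *Lef1* was 87.1 to 90.6 CPM in CreER 0 h. It was 6.84 CPM in O4AID 0 h, where *Fgf5* had 0 reads. Trophectoderm markers summed to 328 to 344 CPM in CreER and 118 CPM in O4AID, though *Tfap2c* among them was higher in O4AID. Primitive endoderm markers summed to 14.4 to 16.6 CPM and 10.5 CPM, with *Dab2* most of the CreER sum (9.31 CPM on average). Among them *Gata6* (0.78 and 4.79 CPM) and *Gata4* (1.93 and 3.15 CPM) were higher in O4AID, and the others were lower. ESC markers summed to 1836 to 1889 CPM and 5075 CPM. *Prdm14*, a zinc finger factor of naive cells, was at 17.4 CPM in CreER 0 h and 49.3 CPM in O4AID 0 h. Their part in the difference of the de novo genes was not tested.

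**Figure D1:**
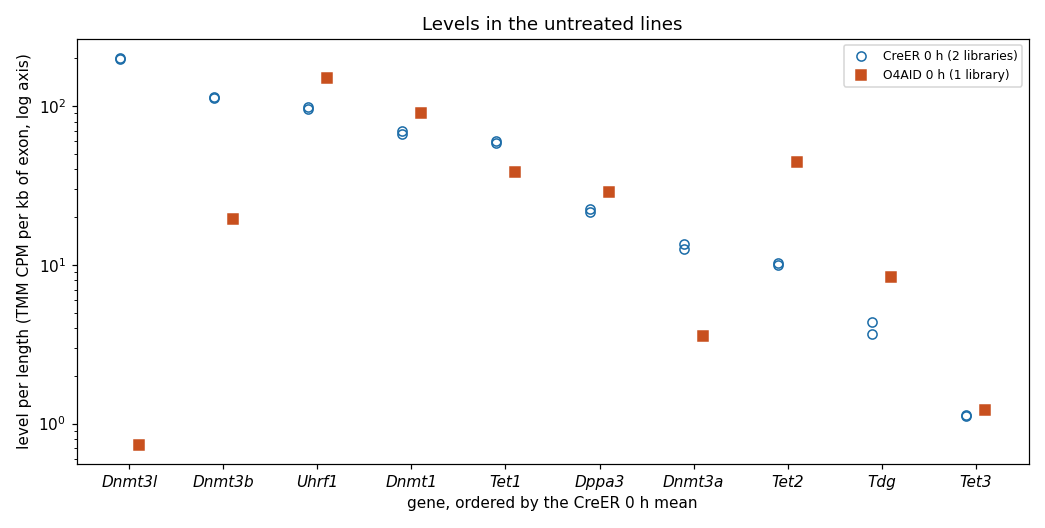
Level per length of each gene in the untreated lines, in TMM-scaled reads per mega-read per kb of exon on a log axis, with circles for the 2 CreER 0 h libraries and squares for the O4AID 0 h library. *Dnmt3l* leads in CreER (mean 199) and is last in O4AID (0.738), while *Tet2* stands at 10.1 and 44.6.

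Compared per length of exon, so that genes can be set against each other, the order of levels differed between the lines. In CreER 0 h, *Dnmt3l* led with 199 ± 2.11 CPM per kb (SD, n = 2), followed by *Dnmt3b* with 114 ± 1.10 and *Uhrf1* with 97.2 ± 2.46. *Dnmt1* (68.3), *Tet1* (59.4), *Dppa3* (22.0), *Dnmt3a* (13.1), *Tet2* (10.1), *Tdg* (4.01) and *Tet3* (1.13) came after. The order is that of reads counted at each gene alone, in which no neighbours overlapped between the 2 libraries. In O4AID 0 h, *Uhrf1* led with 150 CPM per kb and *Dnmt1* followed with 90.4, then *Tet2* (44.6), *Tet1* (38.4), *Dppa3* (28.8) and *Dnmt3b* (19.4), with *Tdg* (8.36), *Dnmt3a* (3.55), *Tet3* (1.21) and *Dnmt3l* (0.738) last. In CreER the de novo genes *Dnmt3l* and *Dnmt3b* thus led by this measure, whereas in O4AID the maintenance pair did. The lengths are summed exons of all annotated isoforms, so genes with long alternative exons sit low on this scale.

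Some of these genes have near-identical copies elsewhere in the genome, and the reads were split between gene and copy in a different way in each line. For *Tdg*, copies of at least 95% identity over at least 200 bases are *Gm9855*, *Tdg-ps* and *Gm5597*. At 0 h, *Tdg* itself held 21.6 ± 2.49 CPM in CreER (SD, n = 2) and 45.0 CPM in O4AID, whereas gene and copies together held 70.1 ± 7.71 CPM and 67.2 CPM. The difference of 1.03 between the lines at *Tdg* alone became -0.055 when the copies were added, a sum chosen after seeing the data. *Uhrf1* has a copy on the X chromosome, *Gm5648*, with 52.8 to 64.4 CPM in the CreER libraries and at most 0.07 CPM in O4AID. With that copy added, the line difference of *Uhrf1* was 0.43. The *Dppa3* copy, *Dppa3-ps*, held 5.54 to 7.49 CPM in CreER and 0 reads in O4AID, and its addition turned the line difference of *Dppa3* from 0.37 to -0.056. The levels of *Tdg* and *Dppa3*, and to a lesser degree of *Uhrf1*, are therefore uncertain between the lines. The order per length in CreER 0 h is uncertain for *Tdg* and *Uhrf1*. *Dppa3* kept its place between *Tet1* and *Dnmt3a* with its copy added, at a mean of 30.0 CPM per kb. With copies added, over the exon length of the gene, *Tdg* spanned 12.0 to 14.1 CPM per kb and overlapped *Dnmt3a* (12.6 to 13.6), above *Tet2* (9.97 to 10.3). *Uhrf1* then spanned 110 to 113 CPM per kb and overlapped *Dnmt3b* (113 to 115).

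**Figure D2:**
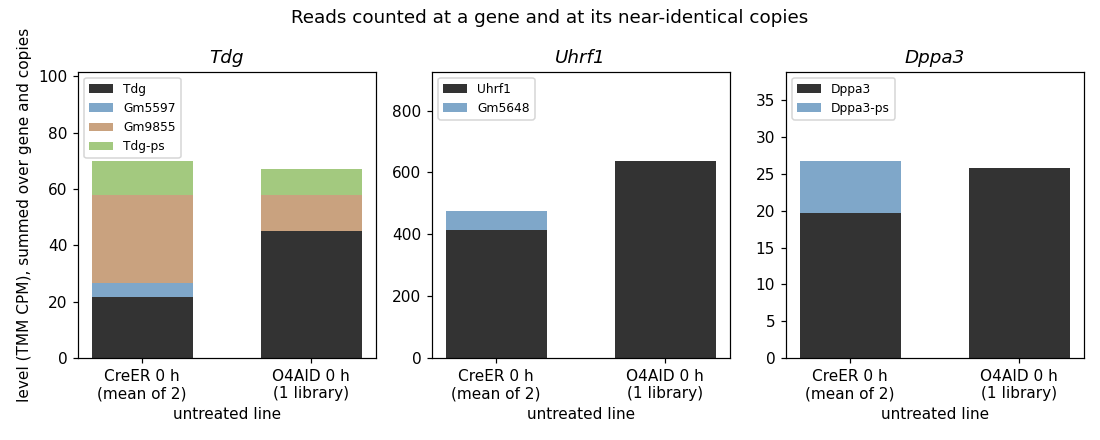
Reads counted at *Tdg*, *Uhrf1* and *Dppa3* (dark) and at their near-identical copies (coloured) in the untreated lines, as stacked levels in TMM CPM, with the mean of 2 CreER libraries and the single O4AID library. The summed *Tdg* bars reach 70.1 and 67.2 CPM although *Tdg* alone stands at 21.6 and 45.0 CPM.

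Genes on the opposite strand overlap 4 of the 10 genes. For *Dnmt3l* this is *Aire*, with 67 shared exon bases and 10.7 to 21.8 CPM in CreER against 0.23 to 0.46 CPM in O4AID. Over the 15 libraries the reads of *Aire* came to 3.66% of those of *Dnmt3l*. That pooled share does not describe O4AID, where *Dnmt3l* itself was at only 1.52 to 2.61 CPM. The overlapping genes of *Dnmt3a*, *Tet2* and *Tdg* came to at most 1.24%.

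**Figure D3:**
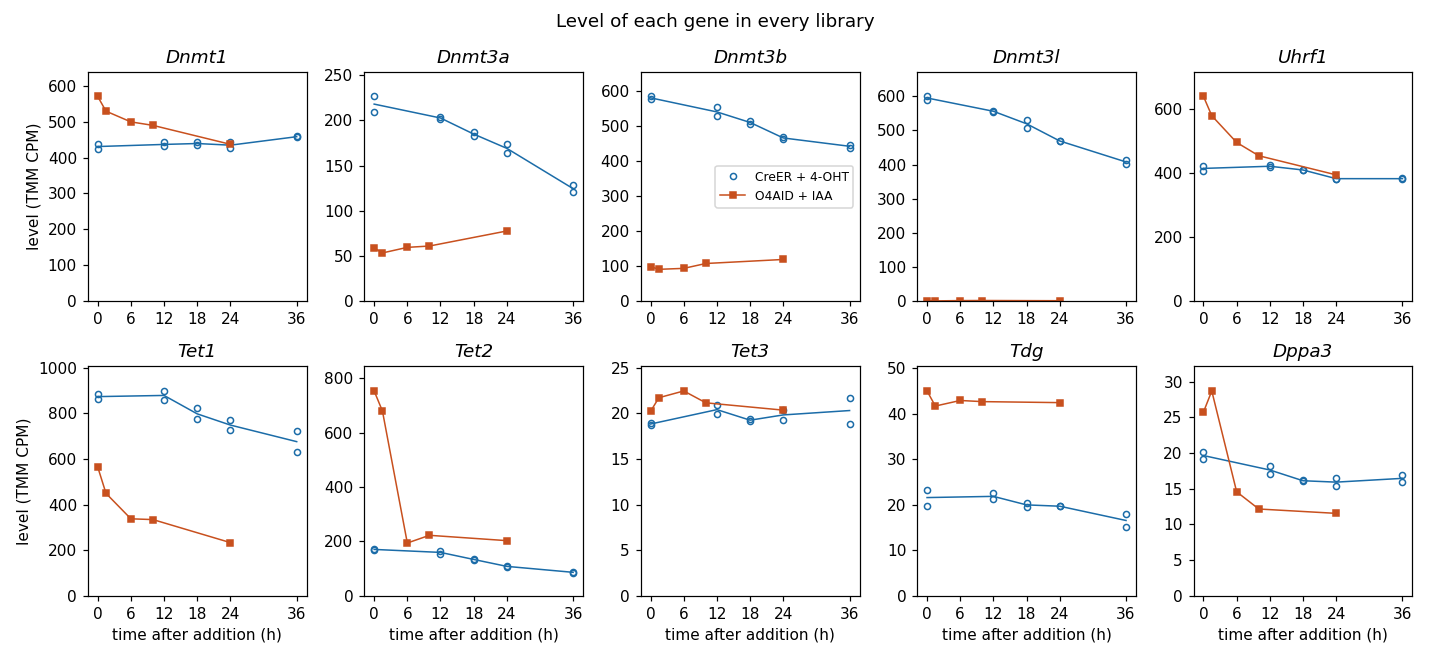
Level of each of the 10 genes in every library, in TMM CPM from 0, against hours after addition of 4-OHT (CreER, open circles for the 2 libraries, line through their mean) or IAA (O4AID, filled squares, 1 library). *Tet2* in O4AID goes from 753 CPM at 0 h to 194 CPM at 6 h, while in CreER it passes from 173 and 168 CPM at 0 h to 88.1 and 85.1 CPM at 36 h.

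In CreER ESCs after 4-OHT, the de novo genes, *Tet1*, *Tet2*, *Tdg* and *Dppa3* fell, while the maintenance genes changed by at most 0.11 on the log2 scale. In order of the treated times, 12, 18, 24 and 36 h, the genes with an adjusted p under 0.05 in edgeR numbered 0, 5, 7 and 9 of 10. Among the 18969 genes in the fit the called shares were 0.395%, 8.52%, 21.6% and 36.6%. The shares of all genes were not matched for level, and among the 10 genes changes as small as 0.10 were called at 36 h. Called falls were 0, 5, 7 and 8 of the 10 genes, against 0.137%, 3.79%, 10.6% and 17.2% of all genes, and called rises were 0, 0, 0 and 1, against 0.258%, 4.73%, 11.0% and 19.4%. At 12 h, 4 of the 10 genes had an unadjusted p under 0.05, against 8.69% of all genes, and DESeq2 also called 0. The median log2 fold change of the 10 genes was -0.039, -0.15, -0.25 and -0.36 at the 4 times, beside medians of all genes between 0.00 and 0.01.

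*Dnmt3a* showed the deepest fall among the writers. Its 2 libraries stood at 210 and 227 CPM at 0 h, 202 and 204 at 12 h, 187 and 183 at 18 h, 164 and 175 at 24 h, and 129 and 120 at 36 h. The 2 libraries of every treated time lay below those of 0 h. On the log2 scale the fitted change was -0.23 by 18 h, with an SE of 0.046 and adjusted p = 0.00149. By 36 h it was -0.80, with an SE of 0.047 and adjusted p = 1.98e-13.

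*Dnmt3l* stood at 600 and 591 CPM at 0 h, 557 and 556 at 12 h, 507 and 532 at 18 h, 468 and 470 at 24 h, and 413 and 403 at 36 h. *Dnmt3b* had 586 and 578 CPM at 0 h, 528 and 554 at 12 h, 516 and 506 at 18 h, 470 and 464 at 24 h, and 439 and 448 at 36 h. For both genes all 8 treated libraries lay below both untreated libraries. The log2 fold change at 36 h was -0.53 (SE 0.038, adjusted p = 8.84e-12) for *Dnmt3l* and -0.38 (SE 0.038, adjusted p = 6.32e-09) for *Dnmt3b*. All 3 de novo genes were called from 18 h on, though the 18 h call of each was lost when a certain library was left out, with adjusted p = 0.0541 for *Dnmt3a* without 0 h replicate 2, 0.0649 for *Dnmt3b* without 18 h replicate 2 and 0.0914 for *Dnmt3l* without 18 h replicate 1.

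The maintenance genes stayed close to their untreated level. *Dnmt1* had 437 and 424 CPM at 0 h, between 426 and 443 CPM at 12 to 24 h, and 459 and 457 CPM at 36 h. It was the single called rise, 0.10 (SE 0.038, adjusted p = 0.0414) at 36 h, and the call was lost under 8 of 11 alternatives, among them total counts (0.015, adjusted p = 0.815) and DESeq2 (adjusted p = 0.107). *Uhrf1* had 407 and 421 CPM at 0 h and 381 and 383 CPM at 36 h, and its called falls of -0.11 at 24 h (adjusted p = 0.0435) and -0.10 at 36 h (adjusted p = 0.0315) were lost under 6 and 4 of 12 alternatives. Without 0 h replicate 2 the adjusted p of *Uhrf1* was 0.235 and 0.203 at these times, and that of *Dnmt1* at 36 h was 0.179. Leaving out 1 library of the later time ended these calls too, with adjusted p = 0.149 and 0.156 for *Uhrf1* without replicate 1 or 2 of 24 h, 0.0749 and 0.0506 without replicate 1 or 2 of 36 h, and 0.0956 and 0.0772 for *Dnmt1* without those of 36 h.

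Among the erasers, *Tet2* changed most. It stood at 173 and 168 CPM at 0 h, 155 and 164 at 12 h, 134 and 134 at 18 h, 107 and 110 at 24 h, and 88.1 and 85.1 at 36 h. No treated library reached an untreated one, and the libraries of each later time lay below those of the earlier times. Its change on the log2 scale was -0.34 by 18 h (adjusted p = 3.37e-06, SE 0.042), -0.65 by 24 h (adjusted p = 1.20e-11, SE 0.043) and -0.97 by 36 h (adjusted p = 8.82e-16, SE 0.044), when the level was 0.511 of the untreated one. These calls held under all 11 alternatives.

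*Tet1* had 884 and 863 CPM at 0 h, 859 and 899 at 12 h, 823 and 774 at 18 h, 725 and 773 at 24 h, and 723 and 629 at 36 h. Its libraries overlapped those of 0 h at 12 h and lay below them from 18 h. The fall was called at 24 h (-0.21, adjusted p = 0.00864) and again by 36 h (-0.36, adjusted p = 4.10e-05, SE 0.054), the 24 h call being lost without 0 h replicate 1 (adjusted p = 0.0849), 0 h replicate 2 (0.0665) or 24 h replicate 1 (0.0911). *Tet3* had 18.7 and 18.9 CPM at 0 h and 21.7 and 18.9 CPM at 36 h, a change of 0.13 on the log2 scale (adjusted p = 0.221, SE 0.078), and was called at no time.

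*Tdg* had 19.8 and 23.3 CPM at 0 h and 17.9 and 15.2 CPM at 36 h, -0.37 (SE 0.087, adjusted p = 0.00134), a call that was lost without 0 h replicate 2 (-0.24, adjusted p = 0.0710). With its copies added, the change at 36 h was -0.46 (adjusted p = 0.000706). *Dppa3*, the guard, had 20.1 and 19.2 CPM at 0 h, 17.0 and 18.2 at 12 h, 16.0 and 16.2 at 18 h, 16.5 and 15.3 at 24 h, and 16.9 and 16.0 at 36 h. All of its treated libraries lay below both untreated ones. The fall was called at 18 h (-0.28, adjusted p = 0.0203), 24 h (-0.29, adjusted p = 0.00640) and 36 h (-0.24, adjusted p = 0.0165), and DESeq2 gave adjusted p = 0.0854 at 18 h and 0.0674 at 36 h. Leaving out any of the 4 libraries compared ended the 18 h call, with adjusted p between 0.0589 and 0.148. The 24 h call was lost without 24 h replicate 2 (0.0932), and the 36 h call without 0 h replicate 1 (0.0736) or 36 h replicate 2 (0.110).

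**Figure D4:**
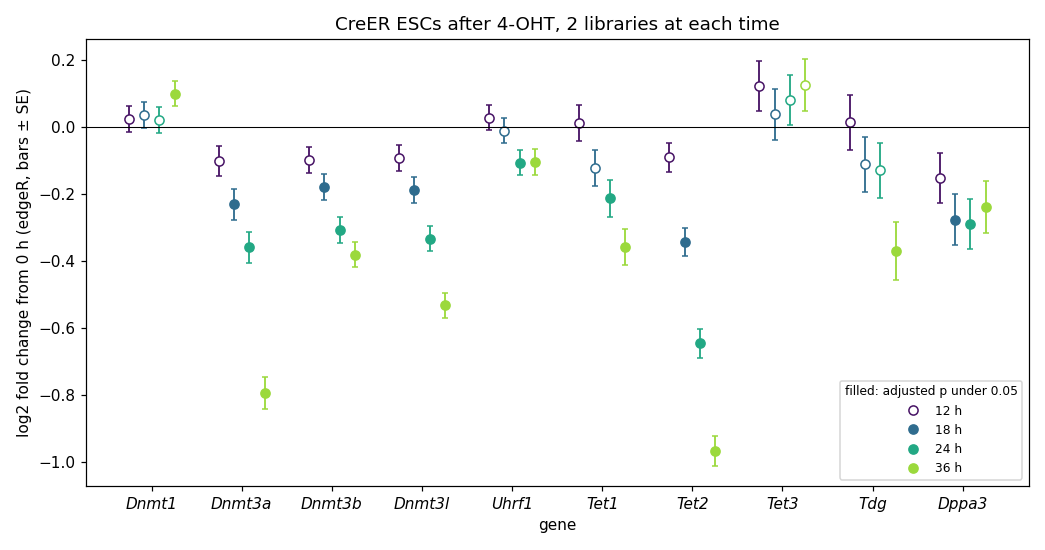
Log2 fold change of each gene from 0 h in CreER ESCs after 4-OHT, with the standard error as bars, 2 libraries at each time, and filled points for an adjusted p under 0.05. *Tet2* (-0.97) and *Dnmt3a* (-0.80) lie lowest at 36 h, while *Dnmt1* (0.10) and *Tet3* (0.13) lie above 0.

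Cell type markers moved over the same hours. The summed level of 9 trophectoderm markers went from 328 to 344 CPM at 0 h to 663 to 702 CPM at 36 h, and that of the 4 primed epiblast markers from 87.1 to 90.6 CPM to 40.7 CPM in both libraries. All 4 primed epiblast markers were called lower at 36 h. At that time 17.2% of all genes were called lower and 19.4% higher. The sum of 6 primitive endoderm markers went from 14.4 to 16.6 CPM to 36.2 to 36.8 CPM, most of it *Dab2* (9.31 to 26.2 CPM on average). Of these 6 genes, 2 were called higher, *Dab2* and *Gata6*, and *Sox7* was called lower (-1.70, adjusted p = 0.000339). The 8 ESC markers summed to 1836 to 1889 CPM at 0 h and 1829 to 1901 CPM at 36 h, but 5 of them were called lower and 2 higher, with a median of -0.16. Among them *Fgf4* changed by -0.73, *Zfp42* by -0.55 and *Tfcp2l1* by 0.65. Fibroblast markers stayed at or below 7.71 CPM in sum. The part of a change in cell type in the values above was not tested.

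In O4AID ESCs after IAA, *Tet2*, *Tet1* and *Dppa3* were at less than 0.5 of their untreated level by 24 h, the maintenance genes were lower at each later time, and *Dnmt3a* and *Dnmt3b* were higher at 24 h than at 0 h. The line has 1 library at each time, so no p-value was computed. A gene is described as past the fold at a difference of at least 1 in log2(CPM + 1), and the intervals, like all intervals here, cover counting error only. Genes past the fold downward numbered 0, 1, 2 and 3 of 10 in the libraries of 1.5, 6, 10 and 24 h. Among the 17471 genes compared the shares were 0.063%, 0.538%, 1.02% and 2.88%. Upward, 0 of the 10 genes passed at any time, against 0.0229%, 0.412%, 1.1% and 4.05% of all genes.

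*Tet2* read 753, 679, 194, 223 and 203 CPM in the libraries of 0, 1.5, 6, 10 and 24 h. The step lay between 1.5 and 6 h, and the 3 later libraries lay close together. The difference from 0 h was -0.15 (95% interval -0.17 to -0.13) at 1.5 h, -1.95 (-1.98 to -1.91) at 6 h and -1.89 (-1.92 to -1.85) at 24 h, a ratio of 3.88 between 0 and 6 h. The 6 h level of *Tet2* in O4AID, 194 CPM, was still above the highest CreER library, at 173 CPM.

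*Tet1* read 565, 450, 338, 335 and 234 CPM in the same order. It was lower in each treated library, by -0.33 (-0.36 to -0.30) already at 1.5 h and by -1.27 (-1.30 to -1.24) at 24 h. Against the 1.5 h library the 24 h difference of *Tet1* was -0.94, short of the fold. *Dppa3* read 25.7, 28.7, 14.6, 12.2 and 11.6 CPM, with differences of 0.15 at 1.5 h, -1.02 (-1.17 to -0.88) at 10 h and -1.09 (-1.23 to -0.95) at 24 h. With total counts or with 5 CPM added before the log, *Dppa3* was just inside the fold, at -0.94 and -0.84 at 10 h and -0.99 and -0.89 at 24 h.

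Of the maintenance pair, *Uhrf1* had 638 CPM at 0 h, then 578, 495, 453 and 394 CPM, and *Dnmt1* had 570 CPM, then 529, 499, 489 and 437 CPM. Both were lower at each later time than at the one before, by 24 h by -0.69 (-0.72 to -0.67) for *Uhrf1* and -0.38 (-0.41 to -0.36) for *Dnmt1*. The 15 S phase genes on a fixed list had a median of -0.56 at 24 h, beside a median of -0.01 over all genes. Of the 15, 0 were past the fold, against 2.88% of all genes downward and 4.05% upward. A tie between these genes and the maintenance pair was not tested.

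*Dnmt3a* had 59.1 CPM at 0 h, then 53.6, 59.7, 61.2 and 77.8 CPM, a difference of 0.39 (0.32 to 0.46) at 24 h. *Dnmt3b* had 99.3 CPM at 0 h, then 91.6, 94.4, 108 and 120 CPM, a difference of 0.27 (0.21 to 0.33) at 24 h. Both were highest in the 24 h library, and this library stayed below every CreER library for both. *Dnmt3l* remained between 1.52 and 2.61 CPM on 65 to 102 reads. Its interval left out 0 at 1.5 h (-0.35, -0.63 to -0.05, on 65 reads). It held 0 at 6 and 10 h and at 24 h (-0.37 to 0.18).

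*Tet3* lay between 20.2 and 22.4 CPM and *Tdg* between 41.6 and 45.0 CPM. At 24 h their differences were 0.01 (-0.12 to 0.13) and -0.08 (-0.17 to 0.01), both intervals holding 0. At earlier times the interval left out 0 for *Tet3* at 6 h (0.14, 0.02 to 0.27) and for *Tdg* at 1.5 h (-0.11, -0.20 to -0.02). With 1 library at each time, differences this small cannot be told from a spread between libraries. The median of the 10 genes went from -0.13 at 1.5 h to -0.24 at 24 h.

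**Figure D5:**
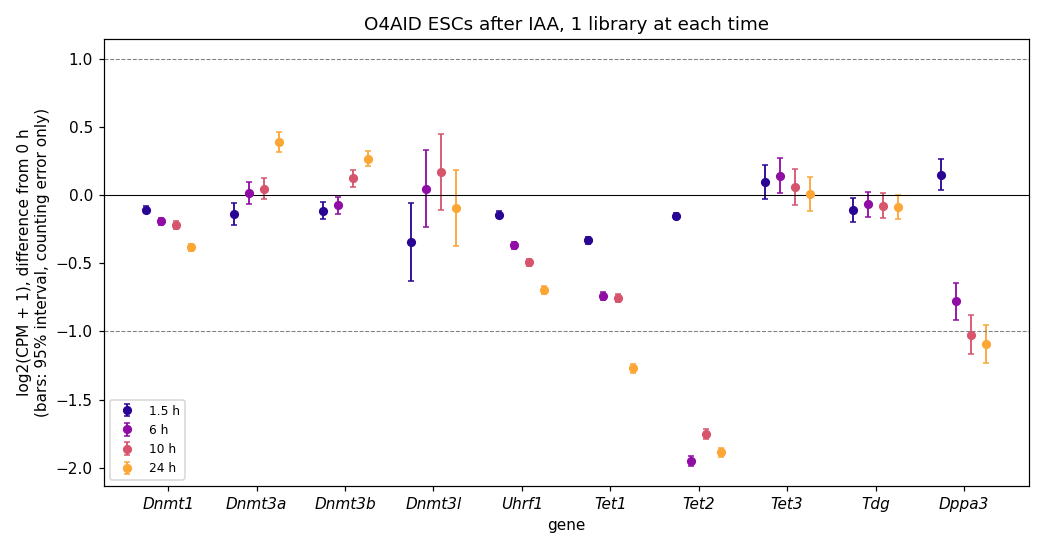
Difference of each gene from its 0 h level in O4AID ESCs after IAA, in log2(CPM + 1), with bars for the 95% interval of counting error, 1 library at each time, and dashed lines at the fold of 1. *Tet2* lies near -1.9 from 6 h on, *Tet1* and *Dppa3* pass -1 by 24 h, and *Dnmt3a* (0.39) and *Dnmt3b* (0.27) lie above 0 at 24 h.

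In these libraries the summed ESC markers went from 5075 CPM at 0 h to 2608 CPM at 6 h and 1298 CPM at 24 h. All 8 of them were past the fold downward at 24 h, when 2.88% of all genes were past it downward and 4.05% upward. Trophectoderm markers summed to 118 CPM at 0 h and 180 CPM at 24 h, and primitive endoderm markers to 10.5 and 45.4 CPM. Of the 8 trophectoderm markers compared, 4 were past the fold upward at 24 h, *Krt7* (2.64), *Krt18* (2.38), *Krt8* (1.91) and *Cdx2* (1.01), while *Tfap2c*, most of the sum at 0 h, went from 91.1 to 81.9 CPM and *Eomes* from 8.13 to 8.59 CPM. Primed epiblast markers summed to between 5.68 and 7.03 CPM, and *Fgf5* had 0 reads in 4 of the 5 libraries. Behind that sum the genes went opposite ways at 24 h, with *Lef1* going from 1.24 to 4.48 CPM (1.29, past the fold) and *Otx2* from 4.93 to 2.39 CPM (-0.80). The part of these cell type markers in the values of the methylation genes was not tested.

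Set side by side at 24 h, the 2 routes gave unlike values for several genes, on the log2(CPM + 1) scale against the 0 h of each line. *Tet2* was at -0.67 and -0.63 in the CreER libraries and -1.89 in O4AID, *Tet1* at -0.27 and -0.18 against -1.27, and *Dppa3* at -0.24 and -0.34 against -1.09. These 3 genes were lower than at 0 h in all 3 libraries, and further so in O4AID. *Dnmt3a* was at -0.41 and -0.32 in CreER and 0.39 in O4AID, and *Dnmt3b* at -0.31 and -0.33 against 0.27, so that both were below 0 h in CreER and above it in O4AID. With 1 O4AID library, and with the removal of OCT4 on different time scales, the differences between the routes were not tested.

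Genes whose course was most like that of the 3 genes past the fold with time were sought by the root mean square difference in log2(CPM + 1) change over the 8 treated times, among 11452 genes with a mean of at least 5 CPM. For *Tet2* these were *Phc1* (0.198), a Polycomb subunit, *1700019D03Rik* (0.219) and *Tdgf1-ps1* (0.223), beside a root mean square change of 1.22 for *Tet2* itself. *Phc1* changed by -1.27 at 36 h in CreER and by -1.67 and -2.15 at 6 and 24 h in O4AID. For *Tet1* they were *Etv5* (0.100), an ETS transcription factor, *Ubqln4* (0.117) and *Gm5844* (0.122). For *Dppa3* they were *Lima1* (0.0955), *Dppa4* (0.124), a chromatin protein of pluripotent cells, and *Lpcat1* (0.126). The likeness covers 8 times that share the 0 h libraries of each line.

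Of 12 partners of the methylation machinery, 8 were called lower and 1 higher at 36 h in CreER, with a median of -0.19, where 17.2% of all genes were called lower and 19.4% higher. *Hells*, a chromatin remodeller that Dnmt proteins work with, changed by -0.65 (SE 0.044, adjusted p = 3.28e-12), and *Zfp57*, which keeps methylation at imprinted loci, by -0.66 (SE 0.049, adjusted p = 2.14e-11). *Uhrf2*, the relative of *Uhrf1*, was the single rise (0.15, adjusted p = 0.0188). In O4AID at 24 h, 2 of 12 were past the fold, *Zfp57* (204 to 69.3 CPM, -1.54) and *Prdm14* (49.3 to 17.0 CPM, -1.48). Of all genes, 2.88% were past it downward there and 4.05% upward. In CreER at 36 h *Prdm14* was at -0.11 (adjusted p = 0.353). The median of the list in O4AID at 24 h was -0.11.

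Genes of oxidised base and deamination repair, which act beside *Tdg*, had 4 of 16 called lower and 4 higher in CreER at 36 h, near the 17.2% and 19.4% of all genes, with a median of 0.00. *Gadd45g* (0.98, adjusted p = 3.59e-08) and *Gadd45b* (0.88, adjusted p = 5.54e-11), stress-induced proteins linked to demethylation and repair, had the largest rises. *Apobec1*, a cytidine deaminase, changed by -0.85 (adjusted p = 0.000286) and the endonuclease *Apex1* by -0.32 (adjusted p = 0.000136). In O4AID at 24 h, *Gadd45g* was the 1 gene of 15 past the fold, going from 1.26 to 11.4 CPM (2.46). Of all genes, 4.05% were past it upward there and 2.88% downward.

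Readers of methylated CpG had 4 of 7 called higher and 1 lower in CreER at 36 h, with a median of 0.27, beside 19.4% and 17.2% of all genes in these directions. *Zbtb4* changed by 0.65 (adjusted p = 0.0215) and *Mbd2* by 0.40 (adjusted p = 0.000122), both binders of methylated CpG, whereas *Mbd3*, the *Mbd2* relative in the NuRD complex that binds methylated CpG poorly, changed by -0.51 (adjusted p = 7.57e-08). In O4AID at 24 h, 0 of 7 passed the fold, beside 4.05% of all genes upward and 2.88% downward, with a median of 0.23.

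Genes that supply the methyl donor and 2-oxoglutarate had 4 of 13 called lower and 6 higher at 36 h in CreER, with a median of -0.01, beside 17.2% and 19.4% of all genes. *Idh2*, which makes 2-oxoglutarate in mitochondria, rose by 0.73 (adjusted p = 8.57e-13) and *Ogt*, a glycosyltransferase that binds Tet proteins, by 0.44 (adjusted p = 1.44e-09). The enzyme of S-adenosylmethionine synthesis *Mat2a* and its regulatory subunit *Mat2b* changed by -0.37 (adjusted p = 1.39e-08) and -0.49 (adjusted p = 1.02e-08). *Gldc*, of the glycine cleavage system, rose by 0.30 in CreER (adjusted p = 3.45e-07). It went from 132 to 49.1 CPM (-1.41) in O4AID at 24 h, the 1 gene of 13 past the fold there. Of all genes, 2.88% were past it downward there and 4.05% upward. S phase genes in CreER at 36 h had 5 of 15 called lower and 1 higher, with a median of -0.09, against 17.2% and 19.4% of all genes. *Cdc6*, a replication licensing factor, rose by 0.33 (adjusted p = 7.84e-07), and *Gins2* (-0.34, adjusted p = 0.000364) and *Ccne2* (-0.25, adjusted p = 0.00143) fell.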

How the data were processed

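RNA was depleted of ribosomal RNA and sequenced as directional paired-end libraries. Reads were trimmed with Trim Galore 0.1.4, aligned to GRCm38/mm10 with TopHat2 2.1.0 and assigned to Ensembl genes with featureCounts 1.5.1, per the submitters' processing notes, and the strand and multimapping settings are not given in the sources used here. The deposited files hold raw read counts per gene, 1 file per library. A table of TMM values that the authors deposited was not used. Spike-in entries (92, with 0 reads) were left out, and genes without a symbol (0.0412% of reads) stayed in the tests.

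For CreER, the counts went into edgeR 4.0.16 under R 4.3.3 and its quasi-likelihood test (TMM, filterByExpr, robust dispersion, prior count 0.125), all 10 libraries in 1 fit and each time contrasted with 0 h, with Benjamini-Hochberg adjustment over 18969 genes. The SE of a CreER fold change was derived from this test, as the absolute log2 fold change over the square root of its F statistic. In simulated counts for 36 h over 18656 genes, 94% of genes changed by 1 and 73% of those changed by 0.5 (log2) were called. O4AID and the untreated lines were compared as log2(CPM + 1) with 95% Wilson intervals (SciPy 1.17.1) among genes with a mean of at least 10 counts. CPM was scaled by TMM over the 15 libraries. The NOISeq-sim calls of the study, which simulate replicates, were not repeated. Replicates differed by more than sampling noise (chi-square over degrees of freedom 3.27 to 7.76), so each library was counted as 1 sample. Reads carry no molecular identifiers.

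The genes, lists, markers and tests were chosen with earlier results of these data known. From each other list the text names up to 2 of the largest called rises and falls at CreER 36 h and of those past the fold at O4AID 24 h, with a mean of at least 50 counts. Genes of a like course are the 3 nearest for each gene past the fold with time. *Prdm14* in the untreated lines was chosen after its values were seen. Alternatives were scaling (RLE, total counts), filters, pseudocounts, DESeq2 1.42.0, fewer libraries, a replicate block, and, chosen after seeing the data, sums over near-identical copies found with BLAST in GENCODE vM21 transcripts.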

Additional observations from a re-analysis of the deposited data

Results flagged for a closer look

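*Dnmt3a* and *Dnmt3b* moved in opposite directions at 24 h by the 2 routes of OCT4 removal. On the log2(CPM + 1) scale, *Dnmt3a* was at 0.39 in the O4AID library and at a mean of -0.36 in the 2 CreER libraries. *Dnmt3b* was at 0.27 in O4AID and at a mean of -0.32 in CreER. Each CreER library lay below 0 h for both genes and the single O4AID library above it. The difference was not tested, since O4AID has 1 library at each time. The direction in O4AID was the same under RLE factors (0.37 and 0.25), total counts (0.50 and 0.37) and with the 1.5 h library as reference (0.53 and 0.38).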

How the results depend on the processing

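Same-numbered CreER libraries of different times did not deviate together (correlations of -0.021 to 0.05 over 10 pairs of times, 0 above 0.1), so the numbers were not taken to pair the samples. With the replicate block, the called genes were 0, 5, 7 and 9 of 10 at 12, 18, 24 and 36 h, as without it. Leaving out each library in turn gave 0 genes at 12 h, 3 to 4 at 18 h, 5 to 6 at 24 h and 6 to 8 at 36 h, with 3 at 18 h without 0 h replicate 2 or either 18 h library. DESeq2 called 0, 4, 7 and 7 genes. In O4AID at 10 h, 1 gene in place of 2 was past the fold with total counts or with 5 CPM added. Against the 1.5 h library, 2 genes were past it at 24 h. Between the untreated lines, 4 in place of 5 genes were past the fold under several settings, *Tdg* being the one lost, and *Tdg* turned to -0.055 with its copies added. The values that changed sign in CreER were all uncalled. At 12 h these were *Dnmt1* (-0.016), *Uhrf1* (-0.012), *Tet1* (-0.027) and *Tdg* (-0.025) with total counts, and *Tdg* (-0.091) with copies. With 1 library left out, the 12 h values ranged from -0.0020 to 0.058 for *Uhrf1*, -0.019 to 0.041 for *Tet1* and -0.098 to 0.15 for *Tdg*. Those of 18 h ranged from -0.040 to 0.021 for *Uhrf1* and -0.22 to 0.022 for *Tdg*, and those of 24 h from -0.0082 to 0.047 for *Dnmt1* and -0.24 to 0.0019 for *Tdg*. Of the CreER values of single genes under an alternative, 403 kept direction and side of the threshold, 34 lost the call, 1 gained it (*Tet1* at 18 h with no filter on low counts) and 14 changed sign. The cause of these changes was not tested, beyond the fewer libraries of those fits. Single O4AID libraries limit what can be said of that line.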
